A study of Mus musculus with 6 samples.

Results

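The data are RNA-seq of differentiated brown adipocytes, and the 10 genes described here are Aifm2 and 9 genes of antioxidant defence, iron handling and lipid peroxidation: Gclc, Gclm, Gpx4, Txnrd1, Nfe2l2, Nqo1, Hmox1, Fth1 and Acsl4. They were taken by gene symbol from the deposited table of 13283 genes, and 10 of the 10 were found. The cells were an immortalized mouse brown preadipocyte (BAT) line that stably expressed Cas9, either transduced with scrambled sgRNA (Scr, n = 3) or carrying a CRISPR knockout of MICT1, a microprotein gene (MICT1 KO, n = 3). All 6 cultures were taken through adipogenic differentiation, and on day 6 they received 10 µM forskolin, an activator of adenylyl cyclase, for 6 h. There was no culture without forskolin, so basal levels were not measured. The knockout cells were pools made with 2 sgRNAs, and the labels do not say which sgRNA each library carried.

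Ferroptosis is a form of cell death in which iron-driven peroxidation of polyunsaturated phospholipids breaks down membranes. Cells hold it back by several routes. GPX4 reduces lipid hydroperoxides with glutathione, whose synthesis is limited by the enzyme of the GCLC and GCLM subunits. AIFM2, also called FSP1, reduces ubiquinone, which then traps lipid radicals in a way that does not need glutathione. In brown fat AIFM2 is also known as a NADH oxidase of lipid droplets that supports glycolysis during thermogenesis. The transcription factor NRF2, encoded by Nfe2l2, binds antioxidant response elements and drives Gclc, Gclm, Nqo1, Hmox1, Txnrd1 and Fth1. ACSL4 works in the opposite sense, as it loads polyunsaturated fatty acids into the pool from which peroxidation-prone phospholipids are made.

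RefSeq promoter windows on GRCm38.p6, from 250 bases before to 50 bases after a transcription start, were found for 8 of the 10 genes, with 14 windows in all. Gclc and Hmox1 had no window in the table used. Both strands were searched for the core of the antioxidant response element, TGACNNNGC, which 12.4% of all 32851 windows hold. It was present in windows of Gclm, Txnrd1 and Nfe2l2. For Txnrd1 it lay only in the window of an internal start (82858956 to 82859255), downstream of the gene's first start at 82833951. The window of that first start (82833701 to 82834000) holds no match. The matches are shown because these 3 genes differ in how their RNA behaved below. Each is given 5′ to 3′ on the strand of its gene, with the match in capitals, which for Gclm and Txnrd1 lies on the opposite strand and so reads as its reverse complement.
Gclm (chr3:122245413-122245442): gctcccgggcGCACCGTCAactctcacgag
Txnrd1 (chr10:82859104-82859133): ctggatttttGCTTTGTCAttctgacacgg
Nfe2l2 (chr2:75704884-75704913): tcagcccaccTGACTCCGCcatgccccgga
The matches begin 134, 92 and 240 bases before the start used for each window. The match in Gclm also overlaps, on the same strand, the cAMP response element half-site TGACG, which 20.8% of windows hold. These are matches of letters and not measured binding sites.

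The only Aifm2 window in the table belongs to an internal start at position 61720649 of chromosome 10, downstream of the gene's first annotated start at 61715263. Its 250 upstream bases, with a GC content of 57.6%, are shown since Aifm2 had the largest difference of the 10 genes. Capitals mark 2 copies of the nuclear receptor half-site AGGTCA, held by 16.3% of windows, and 1 match to the C/EBP motif TTGCNNAA on the opposite strand, held by 10.8% of windows.
Aifm2 (chr10:61720399-61720648): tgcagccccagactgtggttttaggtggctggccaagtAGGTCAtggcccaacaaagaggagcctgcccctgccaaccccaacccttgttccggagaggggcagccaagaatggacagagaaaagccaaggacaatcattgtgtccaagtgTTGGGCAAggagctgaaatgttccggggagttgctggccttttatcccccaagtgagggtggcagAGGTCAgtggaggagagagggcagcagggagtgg
Neither TGACNNNGC nor TGACG occurred in the Aifm2 window.

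The deposited values are a normalized signal per gene, read as estimated reads divided by a size factor per library. Multiplied back they correspond to between 15444108 and 17921245 reads per library. Log2 fold changes are differences of log2(value + 1) from limma-trend, fitted to the 12507 genes that reached 10 in 3 or more libraries. All 10 genes passed this filter. At an adjusted p under 0.05 (Benjamini-Hochberg over those genes), 56.9% of them differed, 28.3% lower and 28.5% higher in MICT1 KO cells. The 10 genes were chosen by their function and with their Scr and MICT1 KO values in this same comparison known. Their own differences are therefore given as a description, with standard errors and 95% intervals but no p. Of the 10, 5 were lower and 2 higher by that threshold, and nothing is read from that count, since the choice used this comparison. With a difference of at least 2-fold as well, 2 were lower (Aifm2 and Hmox1) and 0 higher, beside 5.76% and 7.99% of all tested genes. The MICT1 transcript was not analysed here, so the knockout labels were not checked on the targeted gene. The p-values given for other genes measure only the spread between these cultures.

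Aifm2 (chromosome 10, from 61715263 to 61739260, plus strand, GRCm38) had the largest difference of the 10 genes, followed by Hmox1. Its values were 2888, 2886 and 3154 in Scr libraries 1 to 3, against 400.4, 345 and 436 in MICT1 KO libraries 1 to 3. The lowest Scr value was more than 6 times the highest MICT1 KO value, and the libraries of a group lay close together. The mean was 2976 ± 154 (SD, n = 3) for Scr against 394 ± 45.9 (SD, n = 3) for MICT1 KO, so 13.2% of the Scr mean remained, a 7.55-fold difference. The log2 fold change was -2.92 (standard error 0.082, 95% interval -3.09 to -2.75). Of the 12507 genes tested, 105 (0.84%) had a lower log2 fold change. In a bulk culture, fewer cells that express a gene and less RNA per cell cannot be told apart.

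**Figure D1:**
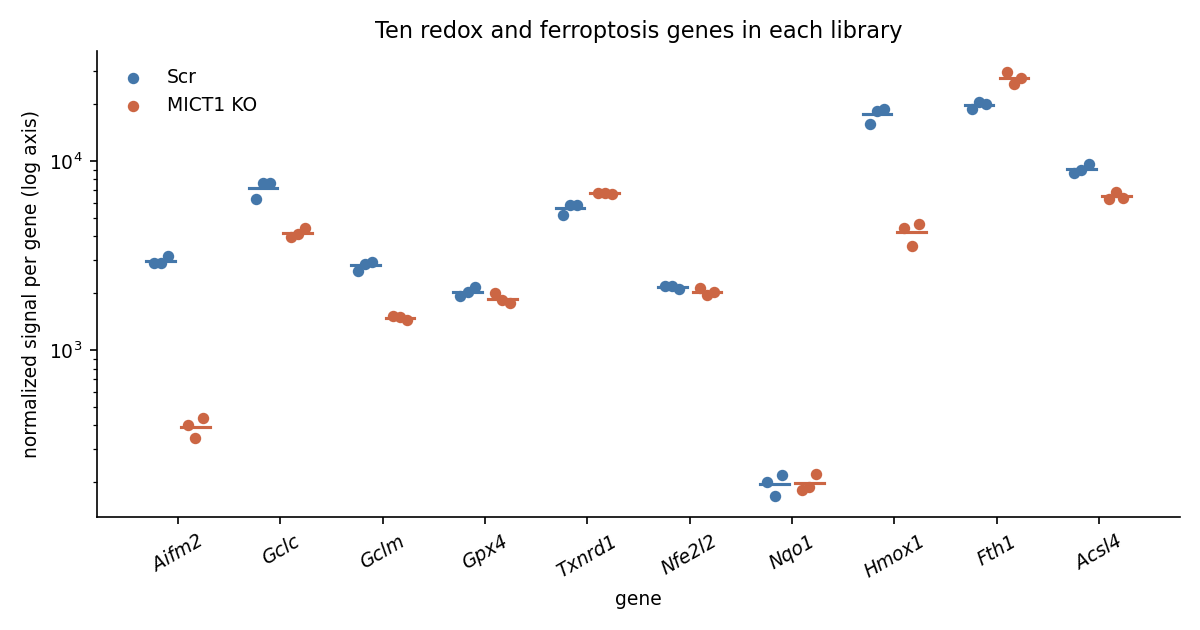
Normalized signal (log axis) of the 10 genes in each library, with Scr libraries in blue, MICT1 KO libraries in orange, and short lines at the group means. Aifm2 and Hmox1 show the widest gaps between the groups, Gpx4, Nfe2l2 and Nqo1 overlap, and Txnrd1 and Fth1 lie higher in MICT1 KO.

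How the counting handled overlapping or repeated sequence bears on some of the values. Those of Gpx4, Gclm, Nqo1, Hmox1 and Nfe2l2 corresponded to whole reads, within 0.05 read, in 6 of 6 libraries. Those of Aifm2 did not in 3 of 6 libraries, and those of Gclc, Acsl4, Txnrd1 and Fth1 did not in 4 to 6. The gene on the opposite strand that overlaps Aifm2 by 596 bases in GENCODE is Macroh2a2 (H2afy2), a histone variant gene. Its mean value was 104 in Scr and 34.1 in MICT1 KO, below Aifm2 in both groups. Gclm also has an antisense transcript and Txnrd1 shares 1305 bases with Eid3 on its own strand. The libraries were strand-specific by the methods, but the strand setting used for counting is not given in the sources used here.

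The subunits of glutamate-cysteine ligase, the rate-limiting enzyme of glutathione synthesis, were both lower. Gclc (chromosome 9, from 77754535 to 77794489), the catalytic subunit, had values of 6280, 7692 and 7656 in Scr, against 3980, 4128 and 4446 in MICT1 KO. Every MICT1 KO value was below every Scr value, and the mean was 58.0% of that in Scr (log2 fold change -0.78, standard error 0.069, 95% interval -0.92 to -0.64). Gclm (chromosome 3, from 122245487 to 122267215), the modifier subunit, had values of 2624, 2865 and 2932 in Scr, against 1514, 1495 and 1446 in MICT1 KO. The groups did not overlap here either. Its mean was 52.9% of that in Scr (log2 fold change -0.92, standard error 0.062, 95% interval -1.05 to -0.79). The intervals of the subunits overlapped.

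Gpx4 (chromosome 10, from 80047166 to 80056439), the glutathione-dependent enzyme that reduces phospholipid hydroperoxides, lay near the same level in both groups. Its values were 1933, 2024 and 2148 in Scr, against 2004, 1835 and 1788 in MICT1 KO. The highest MICT1 KO value was above the lowest Scr value. The log2 fold change was -0.12 (standard error 0.065), with a 95% interval of -0.25 to 0.018 that includes 0. Without MICT1 KO replicate 1 it was -0.17 and past the threshold used for all genes.

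Txnrd1 (chromosome 10, from 82833951 to 82897724), the cytosolic thioredoxin reductase, was higher in MICT1 KO. Its values were 5161, 5881 and 5851 in Scr, against 6809, 6817 and 6668 in MICT1 KO. The groups did not overlap, but the difference was small, with a mean of 120% of that in Scr (log2 fold change 0.27, standard error 0.057, 95% interval 0.15 to 0.39).

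Nfe2l2 (chromosome 2, from 75675513 to 75704663), which encodes NRF2, differed little. Its values were 2181, 2190 and 2119 in Scr, against 2130, 1950.3 and 2030 in MICT1 KO. The groups overlapped by 1 library, and the log2 fold change was -0.09 (standard error 0.060, 95% interval -0.21 to 0.037). NRF2 activity is set largely by protein stability, which RNA-seq does not measure. Nqo1 (chromosome 8, from 107388225 to 107403205), the quinone reductase often used as an NRF2 readout, had values of 201, 170 and 219.8 in Scr, against 183, 189.7 and 221 in MICT1 KO. Its groups were interleaved, at a log2 fold change of 0.01 (standard error 0.15). The 95% interval was wide, from -0.30 to 0.32.

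Hmox1 (chromosome 8, from 75093618 to 75100593), the inducible heme oxygenase that frees iron from heme, came next after Aifm2. Its values were 15656, 18514 and 18803 in Scr, against 4428, 3537 and 4640 in MICT1 KO. All MICT1 KO values were far below the Scr values. The mean was 17658 ± 1739 (SD, n = 3) for Scr against 4202 ± 585 (SD, n = 3) for MICT1 KO, a 4.203-fold difference (log2 fold change -2.08, standard error 0.082, 95% interval -2.25 to -1.91). Of the genes tested, 200 (1.6%) had a lower log2 fold change.

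Fth1 (chromosome 19, from 9980600 to 9985111), the ferritin heavy chain that stores iron in its oxidized form, went the other way. Its values were 18898, 20599 and 20166 in Scr, against 29642, 25452 and 27475 in MICT1 KO. The groups did not overlap, and the mean was 138% of that in Scr (log2 fold change 0.47, standard error 0.060, 95% interval 0.34 to 0.59). Ferritin genes have many processed pseudogenes, so reads could be split between copies and the value is uncertain to that extent. Acsl4 (chromosome X, from 142317993 to 142390802), the acyl-CoA synthetase that favours ferroptosis, had values of 8651, 9014 and 9654 in Scr, against 6316, 6858 and 6408 in MICT1 KO. It was lower without overlap, at 71.7% of the Scr mean (log2 fold change -0.48, standard error 0.056, 95% interval -0.60 to -0.36).

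Across the 10 genes the groups did not overlap for 5 that were lower and 2 that were higher, while 3 overlapped. Among all tested genes 62.0% had groups that did not overlap, 31.2% lower and 30.9% higher. The median difference of the 10 genes was -0.30 on the log2 scale, beside -0.005 over all tested genes. The middle 90% of all genes ran from -1.12 to 1.35, so only Aifm2 and Hmox1 among the 10 lay outside that range.

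**Figure D2:**
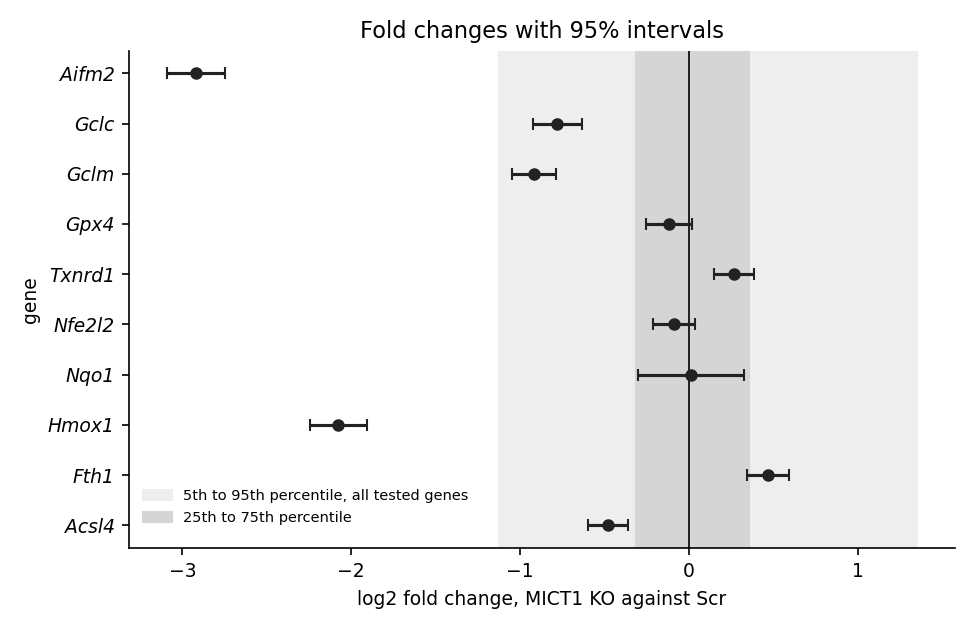
Log2 fold change of MICT1 KO against Scr (n = 3 each) for the 10 genes, with 95% intervals from limma-trend. Grey bands give the 5th to 95th and the 25th to 75th percentile of the 12507 genes tested, and Aifm2 at -2.92 and Hmox1 at -2.08 lie to the left of both bands.

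Levels of different genes were compared per length, as RPKM with exon lengths from GENCODE vM21. The length was that of all annotated exons of a gene joined, 4121 bases for Aifm2, 3469 for Fth1 and 1553 for Nqo1. It can exceed the transcript that was expressed, which lowers the RPKM. The order between genes therefore depends on these lengths, and which transcripts were expressed was not tested. The comparison of a gene between the groups does not depend on them. In Scr cells the order was Hmox1 (616 ± 53.1 RPKM), Fth1 (350.1 ± 10.3), Gclc (117 ± 11.5), Acsl4 (103 ± 5.29), Gpx4 (72.1 ± 3.45), Txnrd1 (48.5 ± 2.86), Aifm2 (44.1 ± 2.34), Nfe2l2 (34.8 ± 0.814), Gclm (27.2 ± 1.28) and Nqo1 (7.75 ± 1.06), as mean ± SD of 3 libraries. Gclc and Acsl4 were not separated beyond their spread, as the lowest Gclc library was at 104 and the highest Acsl4 library at 109 RPKM. Txnrd1 and Aifm2 were also close, with 45.2 RPKM in the lowest Txnrd1 library and 46.7 RPKM in the highest Aifm2 library. In MICT1 KO cells Fth1 came first with 486 ± 34.5 RPKM and Hmox1 second with 147 ± 20.4 RPKM. By this measure Aifm2 moved from rank 7 to the last rank, at 5.86 ± 0.686 RPKM. That was below Nqo1 at 7.81 ± 0.832 RPKM, an order that other lengths could change. In MICT1 KO the next genes, Acsl4 (71.1 to 78.0 RPKM), Gclc (64.3 to 72.7) and Gpx4 (63.8 to 70.7), overlapped their neighbours. The 3 Aifm2 libraries of MICT1 KO (5.15 to 6.52 RPKM) did not overlap the 3 of Nqo1 (7.17 to 8.75 RPKM).

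The ratio of Aifm2 to each of the other genes was lower in MICT1 KO for all 9, without overlap between the groups. Against Gpx4, the log2 ratio of RPKM was -0.71 ± 0.034 (SD, n = 3) for Scr against -3.51 ± 0.197 (SD, n = 3) for MICT1 KO. Against Gclm, the lesser of the glutathione synthesis subunits in RPKM, it went from 0.69 ± 0.066 (SD, n = 3) to -1.31 ± 0.193 (SD, n = 3). At the exon lengths used, Aifm2 thus passed from above to below Gclm. The smallest shift was against Hmox1, from -3.80 ± 0.122 (SD, n = 3) to -4.65 ± 0.055 (SD, n = 3). The largest was against Fth1, from -2.99 ± 0.084 (SD, n = 3) to -6.38 ± 0.133 (SD, n = 3). These ratios follow from the differences given above and are no separate evidence.

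**Figure D3:**
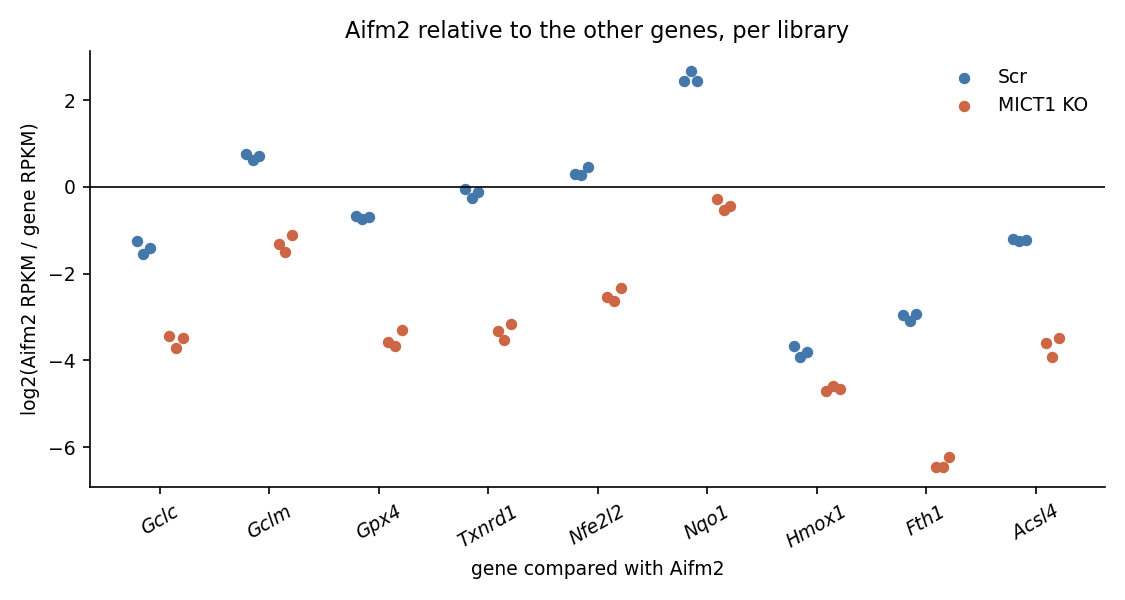
Log2 ratio of the RPKM of Aifm2 to that of each of the other 9 genes in each library, with Scr in blue and MICT1 KO in orange and 0 at equal RPKM. All MICT1 KO points lie below the Scr points, by 0.85 for Hmox1 and up to 3.39 for Fth1 between the group means.

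Over the 6 libraries the 5 genes with a mean of at least 10 CPM whose log2(value + 1) followed Aifm2 most closely were Retn, Aldh6a1, Pcx, G0s2 and Cavin1, out of 9129 such genes. Their Pearson correlations with Aifm2 were 0.9993 to 0.9995. Retn encodes resistin, an adipocyte-secreted peptide, Aldh6a1 an enzyme of valine breakdown, Pcx pyruvate carboxylase, G0s2 an inhibitor of the lipase ATGL, and Cavin1 a caveolar coat protein. Their log2 fold changes ran from -5.86 (G0s2) to -1.11 (Cavin1). With 3 libraries in each of 2 separate groups such a correlation mostly restates the group difference, and 415 genes were above 0.99. Among the other 9 genes, Hmox1 had a correlation of 0.996 and Gclm of 0.991 with Aifm2, Gclc 0.969, Acsl4 0.965, and Nqo1 0.004.

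The adipocyte state of the cultures moved with these results. All 11 adipocyte markers in the table were lower in MICT1 KO, with a median log2 fold change of -3.40. Apart from Adipoq, each had an adjusted p under 0.05 by limma-trend. Adipoq had values of 7.63, 3.16 and 5.18 in MICT1 KO libraries 1 to 3. It passed the filter only through its Scr libraries, so no p is given for it. The summed level of the 11 markers was 139400 to 166000 in Scr and 17370 to 24150 in MICT1 KO libraries. Plin1, the perilipin of the lipid droplet surface, fell from 2852 ± 221 (SD, n = 3) to 54.8 ± 35.6 (SD, n = 3), and Pparg, the master regulator of adipogenesis, from 3742 ± 467 (SD, n = 3) to 754 ± 66.7 (SD, n = 3). Pparg fell by 2.31 on the log2 scale and Plin1 by 5.93. With Adipoq left out, the adipocyte markers ranged from -5.93 (Plin1) to -2.25 (Adipor2). The log2 fold change of Aifm2 lay within that range, and that of Hmox1 just outside it. Of 12 progenitor markers 10 were in the table and 8 were tested. Of these 8, 6 were higher and 2 lower, and the lower ones were Dlk1 (-3.47) and Pdgfra (-0.19). Over all tested genes 28.5% were higher and 28.3% lower. The marker lists too were chosen with earlier results of these data known, so their counts are a description. The summed level of the progenitor markers in the table was 26160 to 26860 in Scr and 31610 to 32020 in MICT1 KO. Most of this sum was Itgb1 alone, with means of 16202 in Scr and 20053 in MICT1 KO, so it mainly follows that gene. Of 10 macrophage markers 4 were in the table, with summed levels of 267 to 384 in Scr and 516 to 638.5 in MICT1 KO. Among them Cd14 was higher and the others did not pass. Of 8 endothelial markers 2 were in the table, with summed levels of 60.04 to 103 in Scr and 99.2 to 131 in MICT1 KO. Of these, Cdh5, the endothelial cadherin, was low throughout, at 8.71 in Scr and 29.9 in MICT1 KO on average. Its Scr values of 5.93, 12.1 and 8.14 lay at the filter value of 10. It passed the filter only through its MICT1 KO libraries, so no p is given for it. Egfl7 was not past the threshold. Adipocyte differentiation and the loss of MICT1 cannot be told apart in this design, and the part of either in the levels of Aifm2 and Hmox1 was not tested.

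**Figure D4:**
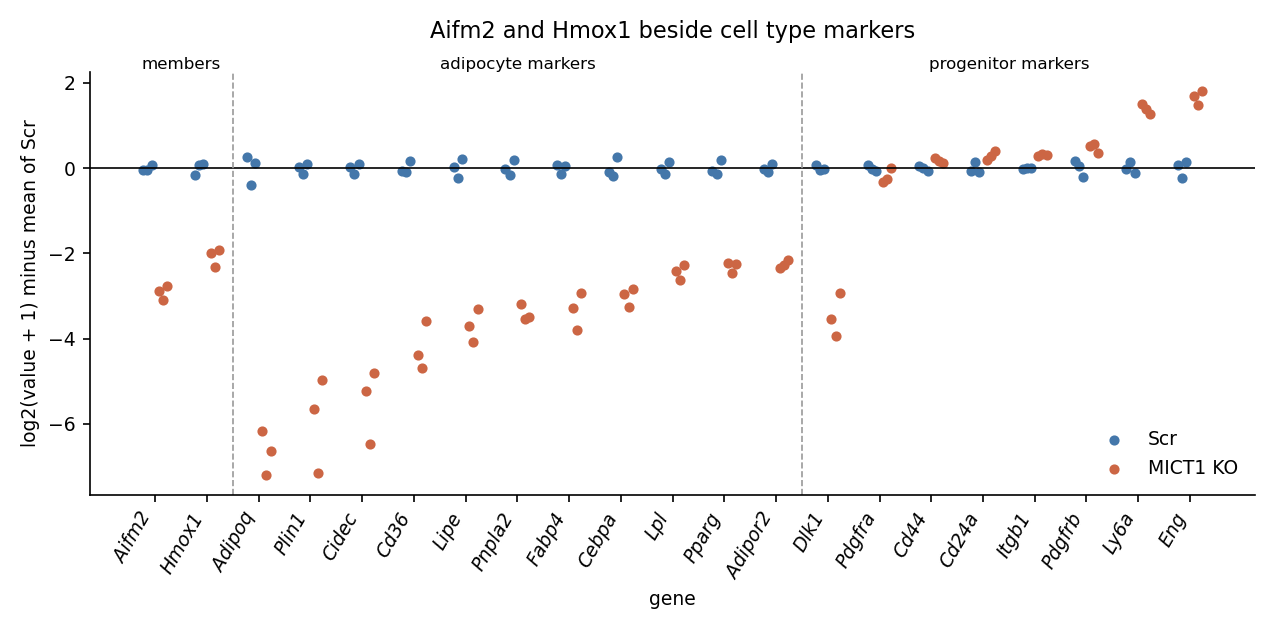
Aifm2, Hmox1, 11 adipocyte markers and 8 progenitor markers in each library, as log2(value + 1) minus the mean of the Scr libraries (Scr blue, MICT1 KO orange). The MICT1 KO values of Aifm2 and of the 11 adipocyte markers lie more than 2 below 0 on this scale, and those of 6 progenitor markers lie above 0.

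Beyond the 10 genes, 7 lists of genes from the same pathways, 185 different tested genes in all, were examined with the same fit, and 75 (40.5%) were lower and 61 (33.0%) higher at an adjusted p under 0.05. Over all tested genes these shares were 28.3% and 28.5%. The lists were chosen with earlier results of these data known. Their counts and adjusted p are therefore a description, and no excess over all tested genes is read from them. Several genes stand in more than 1 list. The counts include low genes that passed the filter only through the group where they were higher, such as Trf, Cbs, Gstt1 and Aloxe3. Values of these genes are means ± SD over 3 libraries a group, Scr first, and their adjusted p comes from limma-trend. The median log2 fold change of the 185 was -0.07.

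**Figure D5:**
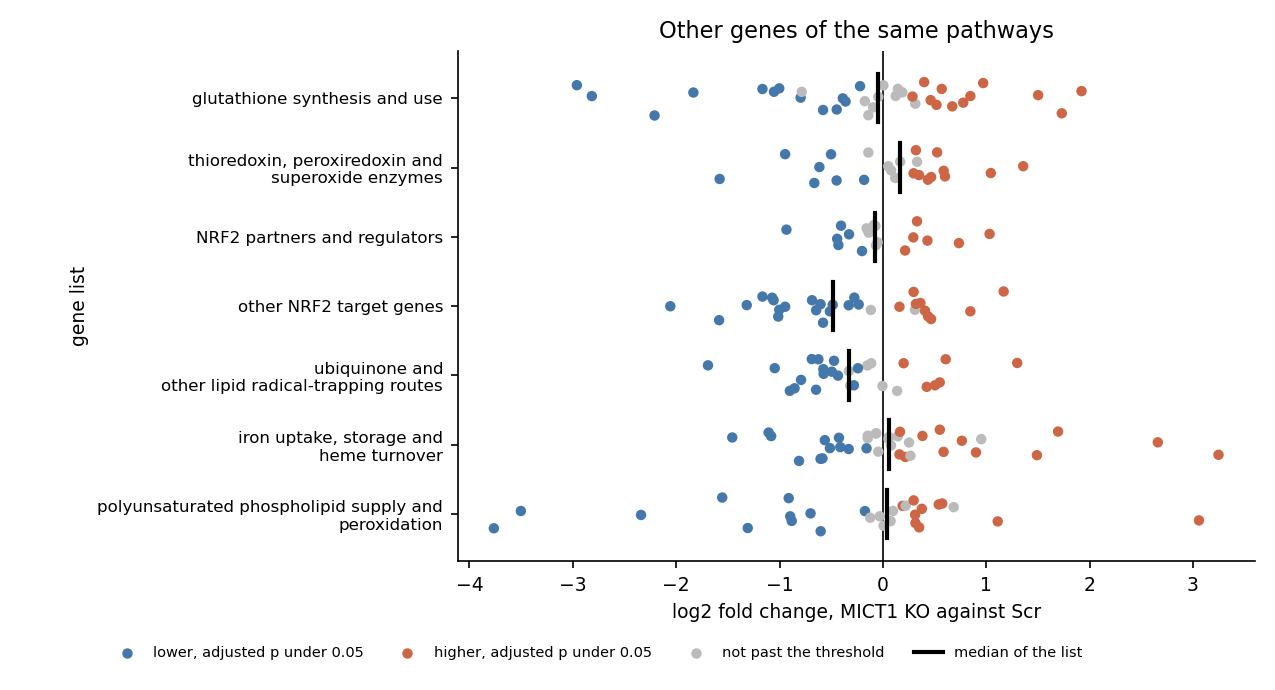
Log2 fold change of MICT1 KO against Scr for the tested genes of 7 pathway lists, without the 10 genes themselves. Each point is a gene, coloured when lower (blue) or higher (orange) at an adjusted p under 0.05 from limma-trend, and black bars mark the median of a list, lowest for the other NRF2 target genes at -0.485.

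Of 35 glutathione genes tested, 13 (37.1%) were lower, 12 (34.3%) higher and 10 were not past the threshold, with a median log2 fold change of -0.045. The falls were led by the microsomal glutathione transferases Mgst3 and Mgst1, membrane enzymes that also reduce lipid hydroperoxides. Mgst3 fell from 1719 ± 102 to 227 ± 72.9 (log2 fold change -2.96, SE 0.15, adjusted p = 3.82e-13 by limma-trend). Mgst1 fell from 4309 ± 225 to 623 ± 153 (log2 fold change -2.82, SE 0.11, adjusted p = 1.02e-14 by limma-trend). Cth, Ggt7 and Slc7a11 were among the 12 that rose. Slc7a11, the cystine importer of system xc-, rose from 468 ± 29.7 to 843 ± 81.7 (log2 fold change 0.85, SE 0.092, adjusted p = 1.10e-07 by limma-trend), and Cth, which makes cysteine from cystathionine, rose by 0.97 (SE 0.12, adjusted p = 6.15e-07). Ggt7, a gamma-glutamyltransferase family member, rose from 98.8 ± 9.17 to 332 ± 49.99 (log2 fold change 1.73, adjusted p = 6.53e-09 by limma-trend). Slc7a11, an NRF2 target as well, thus went opposite to Gclc and Gclm.

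Of 23 genes of the thioredoxin, peroxiredoxin and superoxide enzymes, 7 (30.4%) were lower, 10 (43.5%) higher and 6 were not past the threshold, with a median of 0.17. Cat, the peroxisomal catalase, fell from 2024 ± 280 to 673 ± 32.4 (log2 fold change -1.58, SE 0.085, adjusted p = 1.45e-12 by limma-trend). Srxn1, the sulfiredoxin that repairs oxidized peroxiredoxins, fell from 8356 ± 317 to 4335 ± 18.6 (log2 fold change -0.95, SE 0.052, adjusted p = 2.07e-12 by limma-trend). Txnip, the inhibitor of thioredoxin, rose from 7543 ± 719 to 19305 ± 1341 (log2 fold change 1.36, SE 0.065, adjusted p = 2.27e-13 by limma-trend). Selenow, a small selenoprotein, rose by 1.04 on the log2 scale (SE 0.090, adjusted p = 3.17e-09). The peroxiredoxin genes Prdx1, Prdx4, Prdx5 and Prdx6 were among those that rose, with log2 fold changes between 0.30 and 0.60, while Prdx2 (0.12, adjusted p = 0.134 by limma-trend) and Prdx3 (-0.14, adjusted p = 0.148) were not past the threshold.

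Among 18 NRF2 partners and regulators 6 (33.3%) were lower, 6 (33.3%) higher and 6 were not past the threshold, with a median of -0.08. The small Maf partners Mafk and Maff rose most. Mafk went from 640 ± 57.7 to 1307 ± 29.1 (log2 fold change 1.03, SE 0.079, adjusted p = 5.21e-10 by limma-trend), and Maff rose by 0.74 (SE 0.068, adjusted p = 9.51e-09). The NRF2 inhibitors moved in opposite directions. Keap1, the adaptor that marks NRF2 for degradation, fell by 0.33 on the log2 scale (SE 0.073, adjusted p = 0.000699), whereas Bach1, a repressor that competes with NRF2 at antioxidant response elements and is known for repressing Hmox1, rose by 0.33 (SE 0.084, adjusted p = 0.00220). Rxra, a nuclear receptor that also pairs with PPARγ, fell by 0.93 (adjusted p = 7.77e-09), and Palb2, a KEAP1-binding DNA repair protein, fell by 0.44 (adjusted p = 0.00528).

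Of 29 other NRF2 target genes tested, 18 (62.1%) were lower, 9 (31.0%) higher and 2 were not past the threshold, with a median of -0.485. The lower ones included the carbonyl reductases Cbr1 and Cbr3 and the pentose phosphate genes G6pdx, Pgd, Tkt and Taldo1. Cbr3 fell from 565 ± 49.6 to 135 ± 16.2 (log2 fold change -2.06, SE 0.13, adjusted p = 1.85e-11 by limma-trend). Taldo1, the transaldolase of the pentose phosphate pathway, fell from 2870 ± 146 to 957 ± 60.9 (log2 fold change -1.58, SE 0.067, adjusted p = 2.91e-14 by limma-trend). Gsr, the glutathione reductase, Me1, the malic enzyme, and Idh1, the cytosolic isocitrate dehydrogenase, also fell by more than 1 on the log2 scale. Me1, Idh1 and the pentose phosphate genes also serve lipid synthesis in adipocytes. On the higher side, Slc7a11 stood beside Ephx1, the microsomal epoxide hydrolase, which rose by 0.47 (SE 0.13, adjusted p = 0.00543). Among the targets, then, Hmox1, Gclc, Gclm and Srxn1 were lower, Nqo1 lay at the same mean in both groups, and Slc7a11, Txnrd1, Txn1 and Prdx1 were higher.

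In the list of ubiquinone and other lipid radical-trapping routes, to which Aifm2 belongs by function, 15 of 27 genes (55.6%) were lower, 6 (22.2%) higher and 6 were not past the threshold, with a median of -0.33. Of 11 ubiquinone synthesis genes in it (Coq2 to Coq9, Pdss1 and Pdss2), 7 were lower (Coq3, Coq5, Coq6, Coq8a, Coq8b, Coq9 and Pdss1), Coq2 was higher, and Coq4, Coq7 and Pdss2 were not past the threshold. Of the ubiquinone-binding Coq10 proteins, Coq10b was higher and Coq10a was not past the threshold. Coq8b fell from 283 ± 22.2 to 151 ± 6.30 (log2 fold change -0.90, SE 0.14, adjusted p = 1.09e-05 by limma-trend). The tetrahydrobiopterin route, which also yields a lipid radical trap, was mixed. Gch1, its rate-limiting enzyme, rose from 205 ± 21.3 to 505 ± 11.1 (log2 fold change 1.30, SE 0.12, adjusted p = 5.51e-09 by limma-trend), while Qdpr, which recycles the cofactor, fell from 1394 ± 80.8 to 674 ± 29.8 (log2 fold change -1.05, adjusted p = 1.67e-10 by limma-trend). Nqo2, a relative of Nqo1, rose by 0.55 (SE 0.10, adjusted p = 0.000138). Dhodh, the mitochondrial enzyme that reduces ubiquinone on the inner membrane, fell by 0.28 (SE 0.12, adjusted p = 0.0461), a call that was lost in other settings, with an adjusted p of up to 0.243 without MICT1 KO replicate 2. Aifm1, the mitochondrial relative of Aifm2, was lower by far less (log2 fold change -0.47, SE 0.070, adjusted p = 7.37e-06 by limma-trend).

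Among 36 iron and heme genes tested, 12 (33.3%) were lower, 12 (33.3%) higher and 12 were not past the threshold, with a median of 0.06. Alas1, the first enzyme of heme synthesis, fell from 2946 ± 166 to 1073 ± 88.9 (log2 fold change -1.46, SE 0.070, adjusted p = 2.09e-13 by limma-trend). Nfs1, the cysteine desulfurase of iron-sulfur cluster assembly, fell by 1.11 (SE 0.11, adjusted p = 2.78e-08). Cp, the copper ferroxidase ceruloplasmin, rose from 593 ± 108 to 5575 ± 247 (log2 fold change 3.25, SE 0.094, adjusted p = 6.00e-17 by limma-trend). Lcn2, the siderophore-binding lipocalin that is also an acute-phase protein, rose from 4340 ± 357 to 14042 ± 899 (log2 fold change 1.70, adjusted p = 3.21e-15 by limma-trend). Tfrc, the transferrin receptor, rose by 0.38 (SE 0.056, adjusted p = 6.15e-06). Ftl1, the ferritin light chain, had a log2 fold change of 0.16 (SE 0.065, adjusted p = 0.0403) with overlapping groups, against 0.47 for Fth1. Its adjusted p reached 0.230 without MICT1 KO replicate 1 (log2 fold change 0.08), and its reads too may be split between pseudogene copies.

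Of 28 genes of polyunsaturated phospholipid supply and peroxidation tested, 11 (39.3%) were lower, 10 (35.7%) higher and 7 were not past the threshold, with a median of 0.04. Within the acyl-CoA synthetase family the members went in different directions. Acsl1, the main form of adipocytes, fell from 10408 ± 1486 to 762 ± 71.9 (log2 fold change -3.76, SE 0.085, adjusted p = 1.20e-18 by limma-trend). Acsl3, which activates monounsaturated fatty acids and is known to protect from ferroptosis, rose by 0.32 (SE 0.085, adjusted p = 0.00349), and Acsl5 rose by 0.57 (adjusted p = 5.43e-07). Acsl4 thus lay between Acsl1 and the other synthetases. Scd1, the desaturase that makes monounsaturated fatty acids, fell from 98105 ± 3224 to 8652 ± 312 (log2 fold change -3.50, SE 0.054, adjusted p = 3.69e-21 by limma-trend). Lpcat3, which places polyunsaturated acyl chains into phospholipids together with ACSL4, fell by 0.91 (SE 0.073, adjusted p = 1.04e-09). Ptgs2, cyclooxygenase 2, whose RNA is a common marker of ferroptosis and of inflammation and is also induced by cAMP, rose from 4222 ± 492 to 35076 ± 2323 (log2 fold change 3.06, SE 0.069, adjusted p = 1.30e-18 by limma-trend). Cell death and lipid peroxides were not measured in these libraries.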

How the data were processed

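Total RNA from 3 Scr and 3 MICT1 KO cultures of differentiated, forskolin-treated BAT cells was sequenced. The methods give strand-specific libraries, paired-end reads and alignment with Partek software to NCBI38/mm10. The submitters' processing notes also name STAR and DESeq2, with no role. The counting model and annotation are not given in the sources used here. The authors deposited a normalized signal per gene. Low values (under 20) fell on whole multiples of a step per library in 88.7% to 90.3% of cases (tolerance 0.01), so they were read as estimated reads divided by a size factor, and no count test was used. The table holds no value of 0. limma-trend was applied in R 4.3.3 with limma 3.58.1, a pseudocount of 1, a filter of 10 in at least 3 libraries and a threshold of 0.05 after Benjamini-Hochberg adjustment. The functions were tested on simulated data, where 200 of 200 changed genes among 12395 were recovered. Only genes well above the filter were changed there, each by at least 2-fold, and far fewer than differed in the real data. The recovery of smaller differences was not examined.

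The 10 genes, the 7 pathway lists and the 4 marker lists were chosen with earlier results of these data known. From each pathway list the genes named were the 2 largest rises and the 2 largest falls past the threshold with a mean of at least 10 CPM, plus 11 genes fixed by name (Slc7a11, Keap1, Bach1, Ftl1, Tfrc, Dhodh, Gch1, Acsl1, Acsl3, Lpcat3 and Scd1). Other list genes, among them Aifm1, Gsr, Me1, Idh1, Txn1, the peroxiredoxin and the ubiquinone synthesis genes, were named after their values were seen. CPM and RPKM were scaled to the summed values of each library. Gene positions and promoter windows are from RefSeq on GRCm38.p6, and exon lengths (all annotated exons of a gene joined) and overlapping genes from GENCODE vM21. The alternatives were pseudocounts of 0.5 and 5, no filter, a maximum of at least 4 CPM, scaling by library total or upper quartile, no intensity trend, the replicate number as a block, and each library left out in turn.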

Additional observations from a re-analysis of the deposited data

How the results depend on the processing

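Under 14 alternatives no count of called genes, over all genes, the 10 genes or any of the 7 lists, moved by over 1.5 times. Over all tested genes, 3069 to 3561 were lower and 3198 to 3835 higher, against 3544 and 3569 as reported. The log2 fold change of Aifm2 ranged from -3.0 to -2.83 when single libraries were left out and lay between -2.92 and -2.88 otherwise, and that of Hmox1 between -2.16 and -1.96 on leaving out single libraries. No log2 fold change of the 10 genes moved by as much as the spread between replicates, but 6 of them in place of 5 were lower past the threshold without MICT1 KO replicate 1, where Gpx4 (-0.17) was added. Upper quartile scaling shifted the median of all genes to 0.03, from -0.005. Among the other named genes, 480 of the alternative values kept their side of the threshold and 10 lost it, 6 for Dhodh and 4 for Ftl1, and the cause was not tested. With the replicate number as a block, the calls of the 10 genes stayed the same, and over all tested genes 3512 were lower and 3543 higher. The count of lower thioredoxin, peroxiredoxin and superoxide genes went from 7 to 6 with this block. Same-numbered libraries did not deviate together (correlations of -0.024, -0.015 and 0.064), so the numbers were not taken to pair the samples. With 3 libraries a group, every adjusted p relies on variance information borrowed by limma from the other genes, and low genes such as Nqo1 have wide intervals.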
